A study of Mus musculus with 12 samples.

Results

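Among the odorant receptor genes of the mouse, those numbered Olfr470 to Olfr540 lie mostly in clusters on chromosome 7 and are class II receptors. Members were taken by name: every probe set whose platform gene symbol was Olfr with a number from 470 to 540, without pseudogene suffix, and with every symbol in that range where it carried several. This gave 53 probe sets of 28944 experimental probe sets, of which 51 had a mean log2 signal above 5 and were tested. The other two, Olfr480 and Olfr490, lay under that level. Of the 53, 49 carried 1 symbol and 4 carried several, and together they named 53 different genes. A further 1061 probe sets carried other Olfr symbols.

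The arrays measured RNA from whole main olfactory epithelium (MOE), the lining of the nose in which olfactory neurons sit, of mice aged 6 months. In H2be-KO mice the coding sequence of H2be, a histone H2B variant gene of olfactory neurons, was replaced by a membrane-tagged mCherry reporter, and founders were crossed to C57Bl/6. WT mice carried the intact gene. There were 6 arrays per genotype, each from RNA pooled from a pair of mice. The series' design text gives both sexes in each genotype, a legend of the study calls the mice male, and single arrays carry no label of sex. The whole tissue was used, so every receptor signal is an average over neurons that express that receptor and the far greater number that do not.

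Odorant receptors are G protein-coupled receptors of the cilia of olfactory neurons. Each mature neuron transcribes 1 allele of 1 receptor gene, so the tissue's signal for a receptor follows the number of neurons that chose it and the transcript in each of them. Class I receptors resemble those of fish and form a single cluster on chromosome 7, whereas class II receptors are the larger group, spread over most chromosomes. A bound odorant activates the G protein subunit encoded by Gnal, adenylyl cyclase Adcy3 and the cyclic nucleotide-gated channel built on Cnga2. In RNA from whole tissue, fewer neurons with a receptor and less transcript per neuron cannot be told apart.

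In the RefSeq gene order the members fell into 3 runs. Olfr520 and Olfr521, of family MOR101, formed a pair of their own. The main cluster held 39 probe sets, of which 29 belonged to family MOR204, 6 to MOR268, 2 to MOR267, and 1 each to MOR195 (Olfr513) and MOR40 (Olfr504). The end cluster held 12, with 4 in MOR251, 3 in MOR252, 2 in MOR253, 2 in MOR103 and 1 in MOR104. There were 387 annotated genes between the pair and the main cluster, and 663 between the main and the end cluster. The numbering does not guarantee the class: Olfr504 carries a MOR40 name, which belongs to the class I series of family names, and was kept because the members were taken by number.

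The coding starts of the main cluster are shown because some MOR204 receptors, Olfr495 and most others of small p among them, were nearly alike there, and probe sets of such receptors may share sequence. RefSeq gave windows of 300 bases, 250 before and 50 after the annotated start, for 49 of the 53 genes (GRCm38.p6). In 46 of them the annotated start was an ATG, so most of these windows are placed around the coding start and not around a measured transcription start. The first 50 coding bases, 5′ to 3′, follow for 7 MOR204 receptors of the main cluster and for 1 receptor each of MOR268, MOR252 and MOR101, with bases unlike Olfr495 in capitals:
Olfr495: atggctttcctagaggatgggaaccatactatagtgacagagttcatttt
Olfr494: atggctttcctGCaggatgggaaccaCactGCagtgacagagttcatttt
Olfr470: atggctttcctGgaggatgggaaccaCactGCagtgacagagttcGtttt
Olfr492: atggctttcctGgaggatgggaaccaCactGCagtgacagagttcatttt
Olfr497: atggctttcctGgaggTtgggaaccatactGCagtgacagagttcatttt
Olfr484: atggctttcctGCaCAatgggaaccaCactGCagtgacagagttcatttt
Olfr502: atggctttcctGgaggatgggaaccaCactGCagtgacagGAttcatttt
Olfr514: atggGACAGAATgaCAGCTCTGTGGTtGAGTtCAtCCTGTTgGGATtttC
Olfr530: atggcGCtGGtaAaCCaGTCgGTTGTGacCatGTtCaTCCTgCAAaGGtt
Olfr520: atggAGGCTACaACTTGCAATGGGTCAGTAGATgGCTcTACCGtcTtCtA
The 6 other MOR204 starts shown were chosen from the alike receptors and differed from Olfr495 at 4 to 7 of 50 bases. Olfr514 of MOR268 differed at 37, Olfr530 of MOR252 at 29 and Olfr520 of MOR101 at 39. Compared base by base without gaps, the 231 pairs among MOR204 members ranged from 24% to 100% identity with a median of 36%, and 65 of these pairs reached 90% or more. Olfr472 and Olfr473, also MOR204, matched Olfr495 at 30%. Pairs from different families had a median of 30%. A gap of a codon near the start lowers an ungapped identity, so low values within MOR204 need not mean distant receptors.

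The windows before the start are shown for Olfr495, the receptor whose difference passed the unadjusted threshold, and for Olfr520, which had the smallest p among members that were lower. They are given 5′ to 3′, with the start codon and any match to the homeodomain core TAATTA in capitals. Olfr495 lies on the + strand at chr7:108394872-108395171 (GRCm38.p6) and Olfr520 on the + strand at chr7:99734895-99735194:
Olfr495: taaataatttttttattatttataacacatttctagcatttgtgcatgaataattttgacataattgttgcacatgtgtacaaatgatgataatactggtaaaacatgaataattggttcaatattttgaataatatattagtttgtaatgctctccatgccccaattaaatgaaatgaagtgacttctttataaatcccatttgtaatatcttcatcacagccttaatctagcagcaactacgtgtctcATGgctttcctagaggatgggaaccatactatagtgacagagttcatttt
Olfr520: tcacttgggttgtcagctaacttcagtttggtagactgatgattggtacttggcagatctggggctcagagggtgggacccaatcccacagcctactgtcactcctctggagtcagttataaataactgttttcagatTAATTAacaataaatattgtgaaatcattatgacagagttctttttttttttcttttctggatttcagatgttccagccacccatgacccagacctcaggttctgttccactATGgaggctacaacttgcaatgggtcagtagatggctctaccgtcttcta
Receptor promoters are known to carry sites for homeodomain factors such as Lhx2 and for EBF factors. The letters TAATTA, which read the same on both strands, were found in 7 of 49 member windows (14.3%), against 18.6% of 944 windows of all numbered receptors and 5.29% of all 32851 windows. The EBF core CCCNNGGG, also its own reverse complement, was found in 3 of 49 (6.12%), against 3.07% of receptor windows and 13.7% of all windows. Olfr520 held 1 TAATTA match, beginning 112 bases before its start, and Olfr495 held none. A match is a description of letters, and no match says only that these letters are not in this window.

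The array labels were first set against the targeted gene. H2be, annotated as H2bc21, read 11.51 to 11.84 in H2be-KO and 11.63 to 12.12 in WT, a difference of -0.24 (limma p = 0.0233, exact permutation p = 0.0195). The ranges overlapped, and whether its probes lie inside the deleted coding sequence is not given in the sources used here, so this signal settles little about the labels. Markers of mature olfactory neurons were bright: Omp read 12.90 in both genotypes, and 0 of 17 marker probe sets passed an unadjusted p of 0.05 by limma. The mean of the tooth and bone markers stood apart in H2be-KO replicates 1 and 6, at 9.08 and 9.01. The other 10 arrays read 7.06 to 7.67. The spread among H2be-KO arrays lay mostly in Amelx (SD 3.25) and Ambn (1.04). It was smaller in Dmp1 (0.351), Enam (0.253) and Ibsp (0.137).

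The comparison of genotypes asked whether the loss of H2be changed the transcript level of these receptors. Olfr495, a MOR204 receptor of the main cluster, was higher in H2be-KO at an unadjusted p under 0.05, and no member was lower. That is 1 of 51 (1.96%) higher and 0 of 51 lower, and the background over all 28151 tested probe sets was 3.78% higher and 1.77% lower. The members' shares lay under both in this fit, but the members' share called higher exceeded that of all probe sets in 9 of 26 alternatives and their share called lower did in 2, so no order of the shares is read from it. After Benjamini-Hochberg adjustment by limma over all tested probe sets, members had adjusted p from 0.753 to 0.993 and none passed 0.05. The 51 differences ran from -0.21 to 0.32 on the log2 scale, which is 0.863 to 1.25 times the WT signal. No member had all H2be-KO arrays above, or all below, the WT arrays.

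The intervals bound what could have been missed. Standard errors were 0.084 to 0.196, with a median of 0.121 for members and 0.112 for all tested probe sets. The 95% interval of the difference lay within 0.5 log2 units of 0 for 42 of 51 members and within 1 for all 51. The widest bounds of any member were -0.58 and 0.72. These 51 tests do not show that the receptors were the same in both genotypes. With 6 arrays per genotype, shifts inside those intervals remain compatible with the signals.

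**Figure D1:**
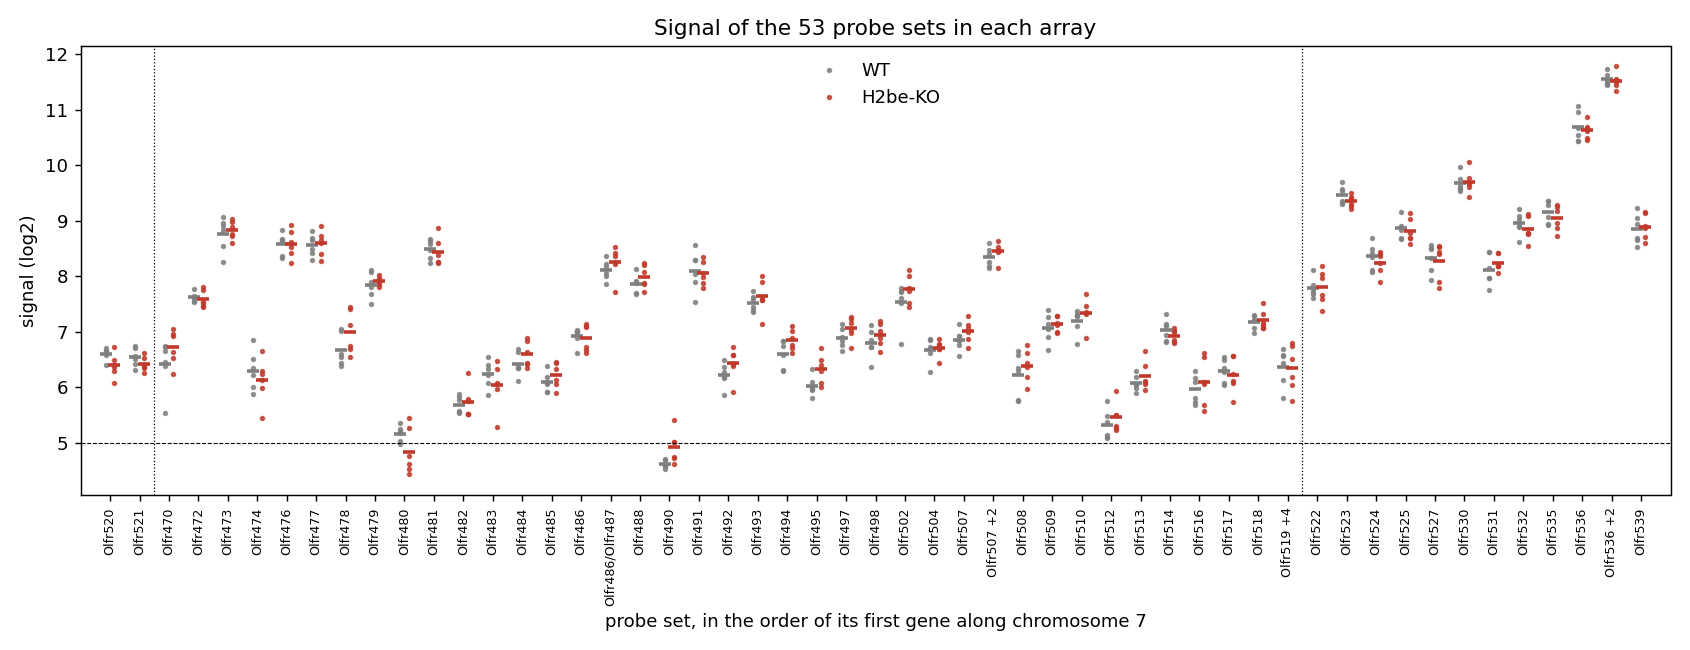
Log2 signal of each of the 53 probe sets (points, 1 per array; 6 WT arrays in grey and 6 H2be-KO arrays in red; bars, group means) in chromosome order, with dotted lines between the 3 runs and a dashed line at 5. The genotypes overlap in every probe set, and only Olfr480 and Olfr490 average under 5.

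Olfr495 was the member with the smallest p. Its signals were 6.00 to 6.70 in H2be-KO with a median of 6.34, and 5.81 to 6.33 in WT with a median of 5.98. All 6 H2be-KO arrays lay above the WT median and 3 lay above every WT array, so the groups overlapped. The difference was 0.30 ± 0.12 (SE), or 1.23 times, with an unadjusted limma p of 0.0255, an exact permutation p of 0.0411 and a limma adjusted p of 0.753. The call depended on single arrays: its limma p became 0.0671 (difference 0.23) on leaving out H2be-KO replicate 1, 0.0563 (0.27) on leaving out replicate 6 of the same genotype, and 0.0564 (0.26) on leaving out WT replicate 6. When both arrays with high tooth markers were dropped, the difference was 0.17 and the limma p 0.18. The part of tooth or bone tissue in the difference was not tested.

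Olfr494, the neighbour of Olfr495 in the gene order and also MOR204, had the third smallest limma p. Its signals were 6.62 to 7.11 in H2be-KO with a median of 6.82, and 6.29 to 6.83 in WT with a median of 6.66. In 5 of 6 H2be-KO arrays it lay above the WT median, and the groups overlapped. The difference of 0.25 ± 0.12 (SE) had a limma p of 0.0591 and an exact permutation p of 0.0887. The first 50 coding bases of the neighbours differed at 5 positions. After removing each genotype's mean, the signals of the neighbours correlated across the 12 arrays with r = 0.40. That is a description, since both were read from the same arrays.

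Olfr520, a MOR101 receptor of the separate pair, was the member with the smallest p among those lower in H2be-KO. It read 6.07 to 6.72 in H2be-KO with a median of 6.38, and 6.40 to 6.71 in WT with a median of 6.63. There were 3 H2be-KO arrays under the lowest WT array, while H2be-KO replicate 1 was over the highest. The difference was -0.21 ± 0.10 (SE; limma p = 0.054, exact permutation p = 0.0563). Its limma p ran from 0.00969 without H2be-KO replicate 1 (difference -0.28) to 0.144 without H2be-KO replicate 6 (-0.15), and it was 0.0318 without WT replicate 1. Its neighbour Olfr521, also MOR101, had a difference of -0.12 with a limma p of 0.206, and the pair's deviations correlated with r = -0.37.

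The remaining members among the 8 smallest limma p were all MOR204 receptors of the main cluster with positive differences. Olfr478 had the largest difference of any member, 0.32 ± 0.17 (SE). It read 6.54 to 7.45 in H2be-KO and 6.37 to 7.04 in WT, 3 H2be-KO arrays lay above every WT array, and the limma p was 0.086. Olfr470 had a difference of 0.30 ± 0.20 (SE), with H2be-KO at 6.23 to 7.05 and WT at 5.53 to 6.75 (exact permutation p = 0.208). WT replicate 4 at 5.53 lay far below the other WT arrays, which read 6.39 to 6.75, and without it the difference was 0.13. Olfr492 differed by 0.21, Olfr497 by 0.17 and Olfr484 by 0.18, with exact permutation p of 0.19, 0.162 and 0.182. Without WT replicate 4 the difference of Olfr492 was 0.14, and without H2be-KO replicate 4 it was 0.31 with a limma p of 0.0154. Without WT replicate 6 that of Olfr484 was 0.12. In each of these the genotypes overlapped.

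**Figure D2:**
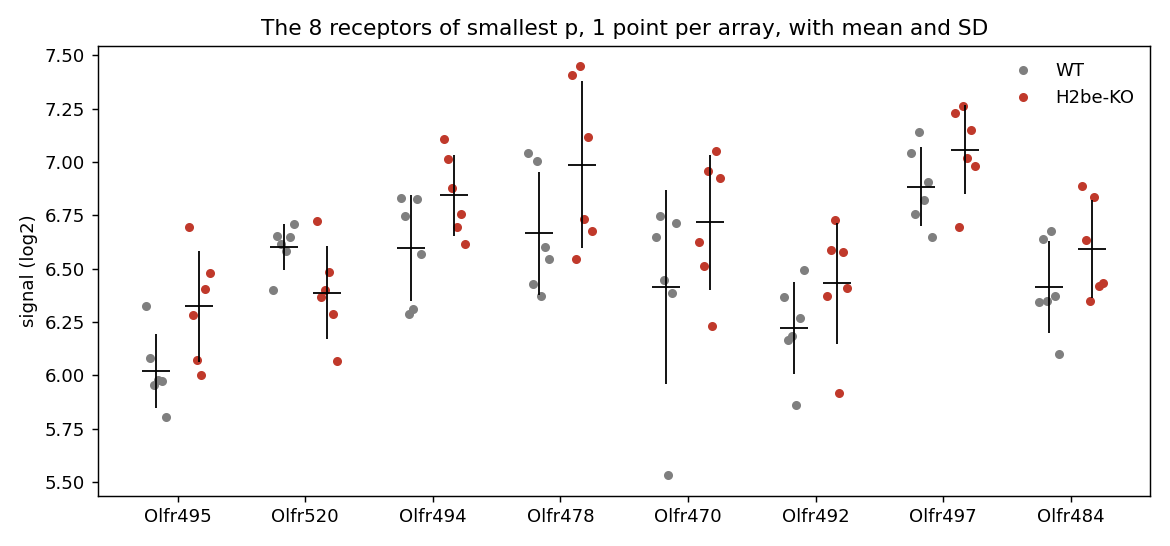
Log2 signal of the 8 members with the smallest limma p (points, 1 per array; cross bar, mean; vertical bar, SD; 6 arrays per genotype), ordered by p from left to right. Olfr520 is the only one with a lower mean in H2be-KO, and the WT and H2be-KO points overlap in all 8.

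By run, the direction of the differences was not the same. In the main cluster 28 of 37 tested members (75.7%) had a positive difference and the median was 0.11, with a range of -0.20 to 0.32. MOR204 made up most of it, with 21 of 27 positive and a median of 0.13, and MOR268 had 3 of 6 positive and a median of 0.00. In the end cluster 4 of 12 were positive and the median was -0.05. Both members of the pair were negative, with a median of -0.17. Over all tested probe sets 56.2% were positive with a median of 0.02, and over the 1033 other tested receptors 66.1% were positive with a median of 0.06. No difference between runs was tested, and members of a run share tissue, arrays and in part sequence.

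**Figure D3:**
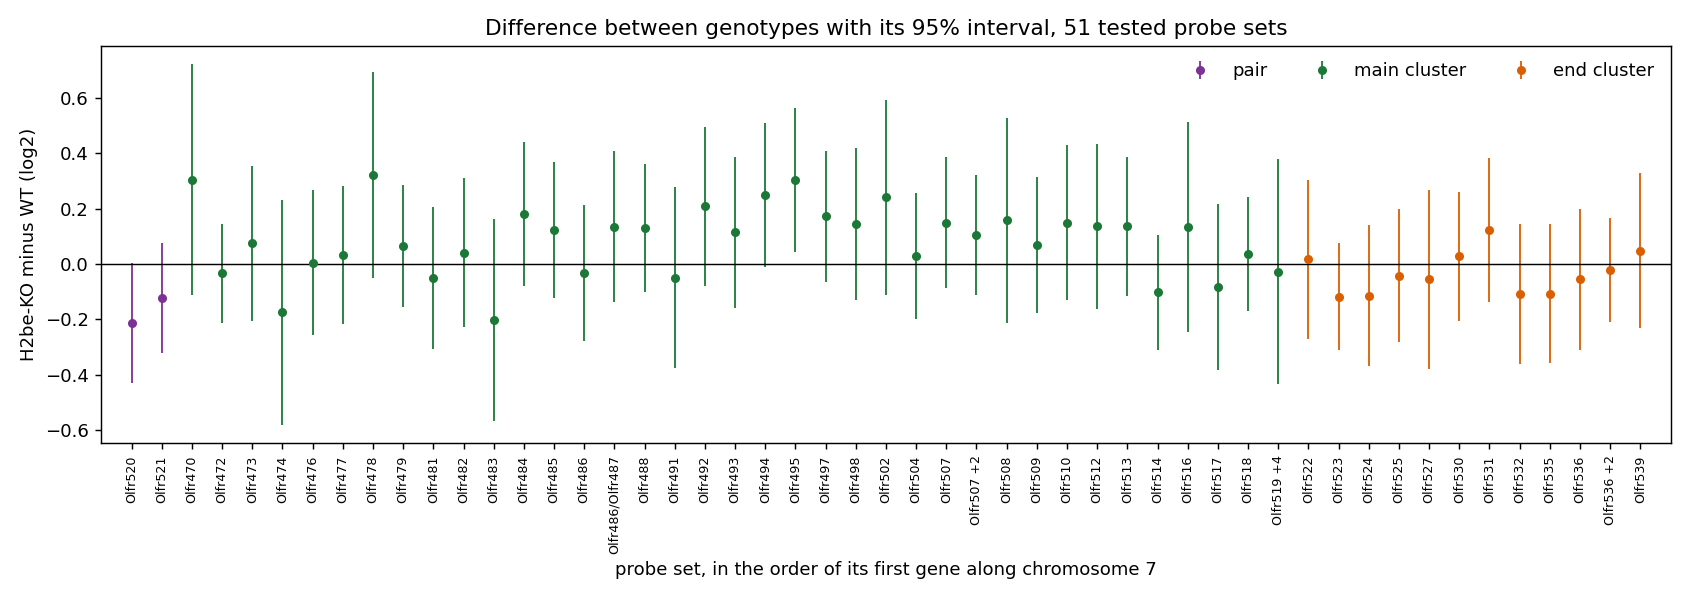
Difference between H2be-KO and WT (log2, points) with its 95% interval (bars) for the 51 tested members in chromosome order, coloured by run. Of 37 main cluster members 28 lie above 0, whereas 4 of 12 end cluster members do.

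The scaling of the arrays matters for these medians. Main cluster medians were 0.08 after quantile normalization, 0.10 after median centring and 0.05 relative to the mean of the other receptors. End cluster medians were -0.08, -0.06 and -0.12 under the same scalings. The end cluster median turned positive, 0.02, when WT replicate 2 was left out. Without WT replicate 4 the main cluster median was 0.06, without H2be-KO replicate 3 it was 0.07, and with array weights it was 0.05. The median over all 51 members was 0.04 as deposited and -0.03 relative to the other receptors, and 9 of 51 members changed sign between scalings. The same scalings moved the background: of all calls, 68.1% were higher in H2be-KO as deposited, 47.9% after quantile normalization, 53.8% after median centring and 19.6% relative to the other receptors.

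Array by array, and each less its own mean over the arrays, the main cluster lay close to the other receptors. The end cluster did not follow them and was highest in WT replicate 2 and lowest in WT replicate 3. The mean over the 53 members was 7.28 to 7.58 in H2be-KO (7.43 ± 0.10, SD, n = 6) and 7.25 to 7.49 in WT (7.38 ± 0.09, SD, n = 6). H2be-KO replicate 1 was the highest array and WT replicate 4 the lowest, for the members and for the other receptors alike. Less the mean of the other receptors, members read -0.15 ± 0.04 (SD) in H2be-KO and -0.13 ± 0.04 in WT. The mean of mature neuron markers was 10.90 in H2be-KO and 10.89 in WT.

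**Figure D4:**
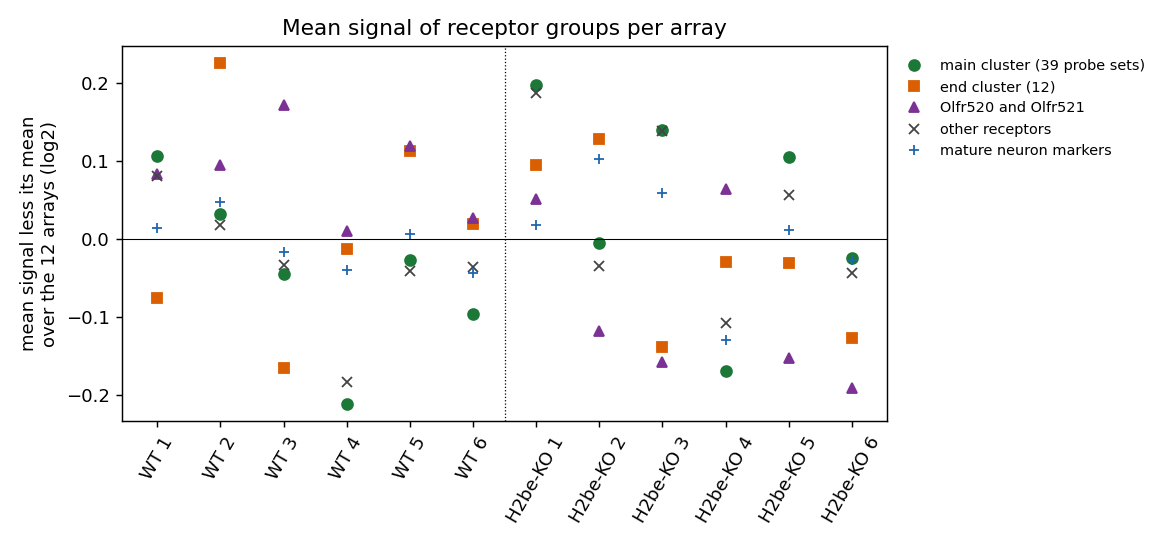
Mean log2 signal of the main cluster, the end cluster, Olfr520 and Olfr521, the other receptors and the mature neuron markers in each of the 12 arrays, each less its own mean over the arrays. The main cluster lies close to the other receptors, highest in H2be-KO replicate 1 and lowest in WT replicate 4.

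Deviations from the genotype means were correlated between members over the 12 arrays, leaving out pairs that share a symbol. Within MOR204 the median correlation was 0.36 over 403 pairs, and over 944 pairs of different families it was 0.08. MOR268 did not follow MOR204, with a median of 0.03 over 11 pairs, and MOR251 had 0.30 over 6 pairs. Within the main cluster the median was 0.25 over 734 pairs, and within the end cluster it was 0.34 over 64 pairs. Between main and end cluster the median was 0.06 over 468 pairs. Split by the first 50 coding bases, the 65 MOR204 pairs at 90% identity or more had a median correlation of 0.32, and the 166 pairs under 90% had one of 0.30. Olfr484 and Olfr493, identical over those 50 bases, had a correlation of -0.39, whereas Olfr482 and Olfr492, also identical, had 0.58. Against the mean of the other receptors the members ran from -0.39 for Olfr524 to 0.88 for Olfr486, and 24 of 53 were above 0.5. The median was 0.53 in the main cluster and 0.03 in the end cluster, where Olfr539 alone of 12 was above 0.5. These are descriptions, since all pairs share the same arrays.

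Signals differed greatly between probe sets, although signals of different probe sets are not levels of receptors because each depends on its probes. The brightest was the probe set that names Olfr536, Olfr530 and Olfr533 together, at 11.53 over the 12 arrays. It was followed by Olfr536 at 10.66, Olfr530 at 9.68, Olfr523 at 9.40 and Olfr535 at 9.09, and all of these were in the end cluster. The first had signals of 11.33 to 11.78 in H2be-KO and 11.43 to 11.73 in WT, with a difference of -0.02. Olfr523, of MOR104, read 9.21 to 9.49 in H2be-KO and 9.29 to 9.70 in WT (difference -0.12, exact permutation p = 0.175).

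The dimmest members were all in the main cluster: Olfr490 at 4.76, Olfr480 just under 5, Olfr512 at 5.39, Olfr482 at 5.70 and Olfr516 at 6.02. Olfr490, under the level for testing, read 4.62 to 5.40 in H2be-KO and 4.53 to 4.70 in WT, and 5 of 6 H2be-KO arrays lay above every WT array (exact permutation p = 0.0108). Both group means were under 5, the level below which probe sets were not tested, and no detection calls were used here. Olfr480 went the other way, at 4.43 to 5.43 in H2be-KO and 4.98 to 5.35 in WT, with 4 H2be-KO arrays below every WT array (exact permutation p = 0.0931).

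Spread among arrays of a genotype also differed between members. Residual SD was largest for Olfr470 (0.39), the probe set naming Olfr519, Olfr514, Olfr516, Olfr518 and Olfr517 (0.38), Olfr474 (0.38), Olfr516 (0.35) and Olfr478 (0.34). It was smallest for Olfr472 (0.12), the probe set of Olfr536, Olfr530 and Olfr533 (0.13) and Olfr523 (0.14). The median was 0.221 for members, 0.263 for other receptors and 0.198 for all tested probe sets.

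**Figure D5:**
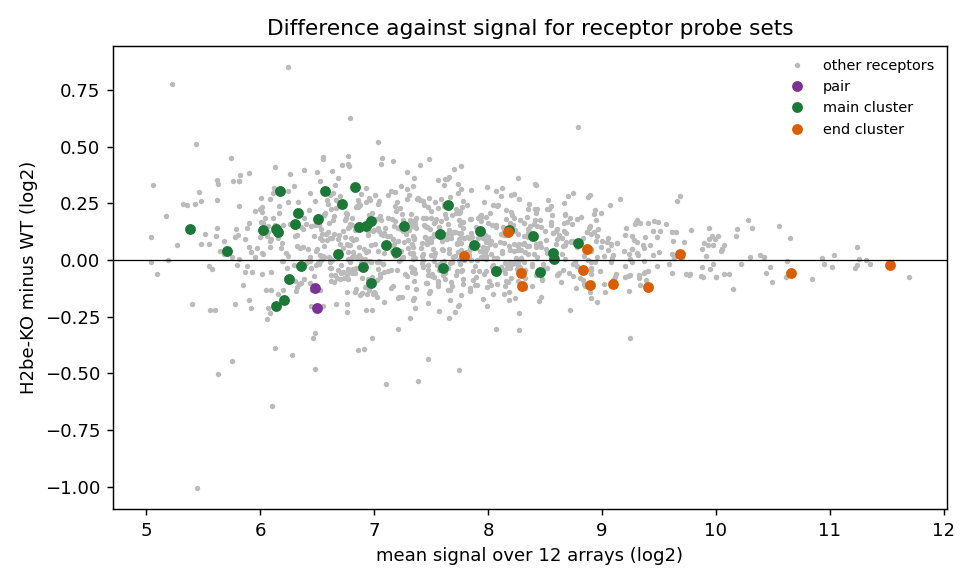
Difference between H2be-KO and WT (log2) against mean log2 signal for the 1033 other tested receptor probe sets (grey) and the 51 tested members, coloured by run. The members lie between -0.21 and 0.32, inside the range of the other receptors, which reach from -1.01 to 0.85.

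The other receptors were counted at the same threshold. Of the 1033 others, 49 (4.74%) were higher and 8 (0.774%) lower, and of the 115 probe sets numbered Olfr543 to Olfr690, where most class I receptors of chromosome 7 lie, 1 was higher and none lower, with a median difference of -0.03. Olfr2 and Olfr17, chromosome 7 receptors known as I7 and P2, differed by -0.11 and 0.18 and were not called (exact permutation p = 0.545 and 0.411). These counts were not tested against each other.

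The pathway genes around the receptors gave no calls by limma. Of 21 probe sets for transduction and receptor trafficking, which include Gnal, Adcy3, Cnga2 and the chaperones Rtp1 and Rtp2, 0 passed in either direction at an unadjusted limma p of 0.05, with a median difference of 0.01. By the exact permutation test Slc24a4, an ion exchanger of the cilia, had p = 0.0498 with a difference of -0.13. Cnga2 differed by 0.10, Gnal by 0.05 and Adcy3 by -0.08, with exact permutation p of 0.145, 0.706 and 0.104. Of 16 probe sets for receptor choice and silencing, such as Lhx2, Ldb1, Ebf1 and the demethylase Kdm1a, 0 passed, with a median of 0.01. Among markers of other cells, 1 of 7 probe sets of immature neurons (Gap43), 1 of 4 of ensheathing glia (Fabp7) and 1 of 6 of progenitors (Top2a) passed as higher, and 1 of 5 of horizontal basal cells (Itgb4) as lower, by unadjusted limma p. Exact permutation p was 0.0455 for Gap43, 0.0303 for Fabp7 and 0.0325 for Itgb4, but 0.0801 for Top2a. Most other tested immature neuron, glia and progenitor markers were also higher without passing, such as Dpysl3 (0.17), S100b (0.13) and Neurod1 (0.32). Lower without passing were Tubb3 (-0.09), Crmp1 (-0.01), Sox10 (-0.17), Neurog1 (-0.06) and Kit (-0.03). Median differences were 0.11 for immature neurons, 0.08 for glia and 0.04 for progenitors. The other horizontal basal cell markers were also lower without passing, from -0.01 for Icam1 to -0.25 for Krt14. None passed among markers of sustentacular, immune, endothelial, or tooth and bone cells. The H2be-KO reporter carries a Gap43 membrane tag, and its part in the Gap43 signal was not tested.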

How the data were processed

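Groups came from the sample titles. As their methods state, the authors checked the scanner files for outlying arrays and used IterPLIER with sketch-quantile normalisation (Affymetrix Expression Console) on the Mouse Gene 1.0 ST platform. What was deposited is a table of log2 signals with 35556 rows, each a probe set, and 12 arrays. Quantile normalisation removes a shift common to most transcripts, and the number of arrays limits the precision. Gene symbols are those of the platform annotation, and 6612 control probe sets were left out. Gene order, MOR names and sequences came from RefSeq (GRCm38.p6).

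Genotype was the only term of a linear model fitted with limma 3.58.1 (R 4.3.3) to the 28151 probe sets whose log2 signal averaged above 5, and adjusted p-values are Benjamini-Hochberg over all of them. Standard errors are limma's. Exact permutation p-values are two-sided over all 924 choices of 6 of 12 arrays, with a smallest possible value of 0.00216. The script was tested on simulated data. Members named are those called, the 8 with the smallest p, the 5 brightest and 5 dimmest, and the 5 with the largest and 3 with the smallest residual SD. Other members named beside a result (such as Olfr521, Olfr524, Olfr486 and Olfr493) were chosen after their values were seen. A rule on protein identity was not used here. Members and lists were chosen with earlier results of these data known. The labels do not say how each pool was made up, so p-values measure the spread between these arrays. Alternatives covered the filter, scaling, covariates, array weights, moderation, the test and arrays left out.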

Additional observations from a re-analysis of the deposited data

Results flagged for a closer look

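Of 106 groups of 6 arrays (53 members in each genotype), 5 held an array far from the rest by Dixon's test, and chance flags about 1 group in 20. Among the named members, Olfr470 in WT replicate 4 read 5.532 while the other WT arrays read 6.387 to 6.745. Olfr482 in H2be-KO replicate 2 read 6.262 while the other H2be-KO arrays read 5.516 to 5.78.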

How the results depend on the processing

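Of 26 alternatives, 12 left out an array each. The number of members called higher, 1 as reported, was 2 without the filter (Olfr490 added), 2 after quantile normalization (Olfr494 added), 0 relative to the other receptors, 0 with trend and robust moderation and 0 without H2be-KO replicates 1 and 6. It ranged from 0 to 4 with single arrays left out. The number called lower, 0 as reported, was 1 after median centring, 1 relative to the other receptors and 1 without H2be-KO replicates 1 and 6 (Olfr520 each time), 2 with array weights (Olfr520 and Olfr521), and 0 to 1 with single arrays left out. The members' median difference ranged from -0.03 to 0.09 over all alternatives. Of the 8 differences with the smallest p, none changed sign in any alternative. Olfr495 lost its call in 6 alternatives, with a limma p of 0.0082 to 0.18 over all of them, and Olfr520 gained one in 6, with a limma p of 0.00969 to 0.144. Counts over all probe sets, 1065 higher and 498 lower as reported, became 827 and 899 after quantile normalization, 815 and 699 after median centring, 222 and 908 relative to the other receptors, 2694 and 1405 with array weights and 2039 and 951 with the replicate block. Single arrays also moved these counts. When H2be-KO replicate 3 was left out, 589 were higher. For replicate 4 of that genotype the count was 2235, and for replicate 5 there were 513 higher and 323 lower. Leaving out WT replicate 4 gave 313 lower, and WT replicate 6 gave 2265 higher and 1552 lower. The cause of these changes was not tested.

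With the replicate number as a block, 6 members were called higher (Olfr470, Olfr478, Olfr494, Olfr495, Olfr497 and Olfr502) and 0 lower. That is 11.8% of members higher, over the 7.24% of all probe sets in the same fit, which reverses the order of the reported fit, and 3.38% of all were lower. Olfr478 had a limma p of 0.00261 there. What the replicate numbers stand for is not in the labels. Deviations of same-numbered arrays correlated at 0.03 to 0.59, and 2 of the 6 lay under 0.1. Of the 6 H2be-KO arrays, 4 correlated best with their own number. Whether the numbers mark a shared factor was not tested, and the reported fit does not treat them as pairs. Signals under log2 5 limit what can be said of Olfr480 and Olfr490.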
